A study of Mus musculus with 8 samples.

Results

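The 30 genes described here encode enzymes that build sterols and fatty acids, together with proteins that control or carry their products. They were found as the rows whose Ensembl identifier maps to 1 of 30 given symbols, and they make up 30 of the 54532 genes in the count tables. Each symbol matched 1 identifier, and all 30 genes passed the filter on low counts. They fall into 4 groups by role: 7 enzymes that make the isoprenoid precursors, 11 enzymes from squalene to cholesterol, 4 genes of control and transport, and 8 enzymes of fatty acid synthesis. RNA was measured in islets, the endocrine cell clusters of the pancreas, picked by hand after collagenase digestion from mice aged 25 to 30 weeks and rested overnight. Wild-type islets and islets labelled Sting-/- were each kept for 3 h with DMSO, the solvent control, or with DMXAA at 50 µg/mL, and each of the 4 groups has 2 libraries. DMXAA is an agonist of mouse STING, a protein that relays signals of cytosolic DNA to interferon genes. The labels describe neither the Sting allele nor the origin of the 2 libraries of a group, which may be separate mice or a pool. The p-values therefore reflect the spread between libraries alone, and this spread may be technical.

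Cholesterol is made from acetyl-CoA by way of mevalonate, farnesyl diphosphate and squalene, and fatty acids are made from the same acetyl-CoA by carboxylation, chain building, elongation and desaturation. The transcription factors encoded by Srebf2 and Srebf1 drive the sterol and fatty acid branches when membrane sterol is scarce, and the Insig1 protein holds them in the endoplasmic reticulum when sterol is plentiful. Insulin-secreting beta cells use citrate exported from mitochondria as a source of cytosolic acetyl-CoA, and their secretory granules need membrane cholesterol.

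Library totals ran from 15624020 to 19601850 counts, 17055 genes were tested, and 26 of the 30 genes had at least 100 counts in every library. Sting1 had 19 to 48 counts in the libraries labelled knockout and 23 to 41 in the wild-type libraries, so the former are called knockout-labelled. The interferon-stimulated gene Rsad2 was at 28.4 and 31.0 CPM (the count relative to its scaled library size) in the solvent libraries and at 1446 and 1497 CPM in the DMXAA libraries of the wild type. In knockout-labelled libraries it was at 13.9 and 8.83 CPM under DMSO and at 19.8 and 9.48 CPM under DMXAA. Summed CPM of 9 beta cell markers ran from 163022 to 323420, with none at 0, and 8 adipocyte markers summed to 6.74 to 12.8 CPM, of which Lep was at 0 in all 4 groups. Summed acinar cell markers, of which 10 of 11 were tested, were at 6156 CPM in wild-type DMSO replicate 1 and between 327 and 2638 CPM in the other libraries. The 8 markers of stellate cells and fibroblasts were also highest in that library, at 278 CPM against 62.2 to 176 CPM. In bulk RNA, a smaller share of a cell type and less RNA per cell cannot be told apart.

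The promoter stretches below belong to 4 of the genes whose level was high in 1 wild-type DMSO library (Insig1, Hmgcs1, Msmo1, Idi1). Hsd17b7 and Cyp51 were also high in that library and had a window, but are not printed. The other stretches belong to the 2 genes with the smallest adjusted p in any contrast (Pmvk, Tm7sf2). They come from RefSeq on GRCm38.p6 and run from 250 bases before to 20 bases after the RefSeq start, on the strand of the gene. Capitals mark matches, on either strand, to the core of the sterol regulatory element (CACNCCAC), the E-box (CACGTG), the CCAAT box (CCAAT) and the GC box (GGGCGG). No matches shared bases in these 6 stretches.
Insig1, chr5:28071162-28071431, plus strand: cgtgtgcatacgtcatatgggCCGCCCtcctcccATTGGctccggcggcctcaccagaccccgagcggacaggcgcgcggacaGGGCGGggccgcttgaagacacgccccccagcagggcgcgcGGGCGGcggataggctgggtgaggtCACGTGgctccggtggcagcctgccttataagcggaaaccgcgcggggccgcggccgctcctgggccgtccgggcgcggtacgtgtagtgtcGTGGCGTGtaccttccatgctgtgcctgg
Hmgcs1, chr13:119690101-119690370, plus strand: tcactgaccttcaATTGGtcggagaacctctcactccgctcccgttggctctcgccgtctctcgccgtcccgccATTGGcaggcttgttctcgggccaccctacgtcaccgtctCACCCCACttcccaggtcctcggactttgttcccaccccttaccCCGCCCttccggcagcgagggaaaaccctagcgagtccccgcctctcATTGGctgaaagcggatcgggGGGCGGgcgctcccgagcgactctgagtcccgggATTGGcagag
Msmo1, chr8:64733559-64733828, minus strand: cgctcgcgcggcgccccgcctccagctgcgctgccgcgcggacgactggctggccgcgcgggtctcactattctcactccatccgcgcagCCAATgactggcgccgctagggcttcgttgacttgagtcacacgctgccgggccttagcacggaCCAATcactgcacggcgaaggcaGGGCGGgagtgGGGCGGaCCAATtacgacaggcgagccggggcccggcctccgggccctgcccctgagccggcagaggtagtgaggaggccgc
Idi1, chr13:8885356-8885625, plus strand: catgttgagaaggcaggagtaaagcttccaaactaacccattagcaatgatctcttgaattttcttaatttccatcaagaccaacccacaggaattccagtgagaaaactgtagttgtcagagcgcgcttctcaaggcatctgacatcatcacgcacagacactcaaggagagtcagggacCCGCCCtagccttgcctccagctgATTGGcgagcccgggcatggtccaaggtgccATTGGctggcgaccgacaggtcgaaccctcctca
Pmvk, chr3:89454291-89454560, plus strand: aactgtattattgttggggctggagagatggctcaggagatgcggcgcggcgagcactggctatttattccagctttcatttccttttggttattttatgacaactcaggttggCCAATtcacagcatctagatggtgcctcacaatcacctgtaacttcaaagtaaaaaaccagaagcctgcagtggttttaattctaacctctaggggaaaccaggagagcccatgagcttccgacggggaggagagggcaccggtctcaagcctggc
Tm7sf2, chr19:6067831-6068100, minus strand: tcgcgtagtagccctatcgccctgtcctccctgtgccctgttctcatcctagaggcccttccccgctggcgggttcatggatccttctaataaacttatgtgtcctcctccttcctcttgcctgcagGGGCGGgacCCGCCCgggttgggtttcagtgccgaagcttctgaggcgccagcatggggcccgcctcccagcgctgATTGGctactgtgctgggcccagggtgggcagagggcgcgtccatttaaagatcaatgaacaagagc
Windows of 300 bases, reaching 50 bases past the start, were given for 23 of the 30 genes, and 3 of these had more than 1 window. A CCAAT box was present in 19 of 23 genes (82.6%) against 41.1% of 27025 genes with a window, and a GC box in 19 of 23 (82.6%) against 38.2%. Both boxes were found in 17 of the 23. The sterol element core was matched in 3 of 23 (13%), Hmgcs1, Insig1 and Acat2, against 7.12% of all genes, and the E-box in 4 of 23 (17.4%) against 8.09%. Such a match is a description of letters in a window and not evidence of a bound site. The 27025 genes were not limited to those that passed the filter on low counts, whereas all 30 genes passed it. All of the Tm7sf2 stretch and parts of the Insig1, Msmo1 and Idi1 stretches lie inside the gene as GENCODE draws it, and the Pmvk stretch is 1 of its 2 RefSeq windows.

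Levels are compared between genes as mean CPM per kb of annotated exon. Acly, which splits citrate into acetyl-CoA and oxaloacetate, stood far above the rest at 440 CPM per kb, with a range of 376 to 532 over the 8 libraries. The next were Sqle, squalene epoxidase, at 37.7 CPM per kb, Insig1 at 34.6, Srebf1 at 33.1 and Scd2, a stearoyl-CoA desaturase, at 32.5. The library ranges of these 4 overlapped each other, and their order within each library was not compared. Pmvk, phosphomevalonate kinase, was the highest precursor enzyme at 20.8 CPM per kb, and Srebf2 was at 17.9.

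The lowest levels were those of Fdps, farnesyl diphosphate synthase, at 0.396 CPM per kb, and of Fads2, a desaturase of polyunsaturated fatty acids, at 1.57. Fdps is uncertain, because 26.7% of its exon bases are shared with Gm43738 on the same strand, and how such reads were counted is not given. Scd2 exceeded its paralog Scd1 in every library, by 9.19 to 27.8 times per kb, and how reads shared by these paralogs were counted is not given. Fads1 exceeded Fads2 by 4.41 to 6.42 times per kb, and Srebf1 exceeded Srebf2 by 1.62 to 2.22 times. Fasn, fatty acid synthase, had the narrowest range over the libraries, 1.12-fold, and Scd1 the widest, 3.83-fold.

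**Figure D1:**
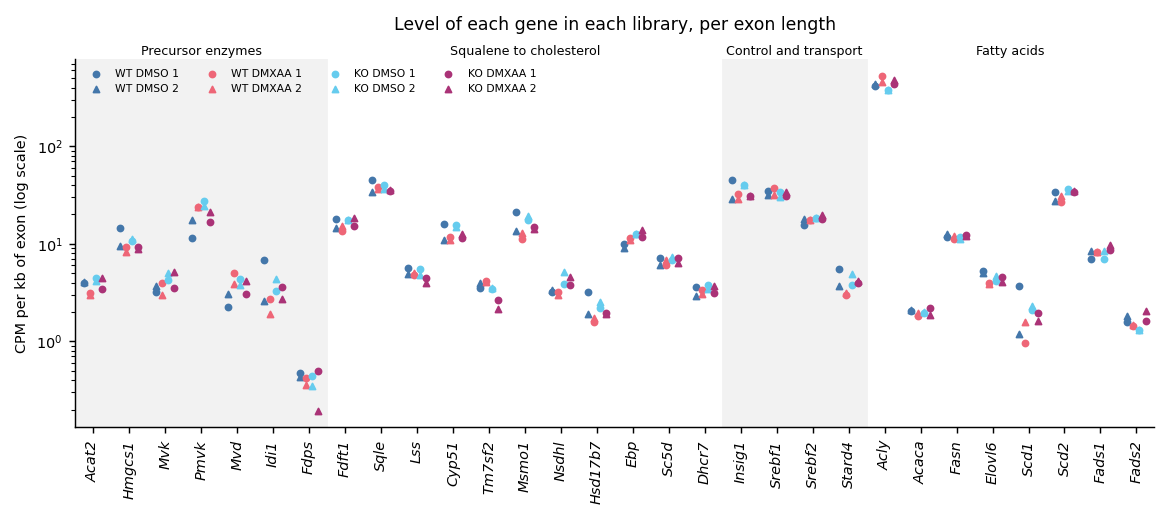
Level of each of the 30 genes in each of the 8 libraries, in CPM per kb of exon on a log axis, grouped by role; circles are replicate 1, triangles replicate 2, and colours the 4 groups (KO, knockout-labelled). Acly lies between 376 and 532 CPM per kb in every library, and the spread of wild-type DMSO libraries is wide for Idi1 and Scd1.

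None of the 30 genes passed the test for DMXAA against DMSO in wild-type islets (edgeR quasi-likelihood test, Benjamini-Hochberg adjusted p under 0.05), where 1.48% of all genes did. At an unadjusted p under 0.05 there were 8 of the 30, against 11.9% of all genes, and DESeq2 and limma-voom also called 0. Fold changes were negative for 22 of 30 genes, with a median log2 fold change of -0.10 against -0.00066 over all genes. The 2 DMXAA libraries were both above the 2 DMSO libraries for 5 genes and both below for 10, where 22.5% and 23.9% of all genes were apart in those directions. The 95% intervals of the 30 log2 fold changes lay between -1.99 and 1.31.

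Among the precursor enzymes, Pmvk (mm10 chromosome 3, 89454541 to 89469013, plus strand) was at 19.9 and 30.3 CPM in the solvent and 40.5 and 40.8 CPM in the DMXAA libraries of the wild type, against 47.2 and 42.0 CPM (solvent) and 28.4 and 36.3 CPM (DMXAA) in knockout-labelled islets. Both wild-type DMXAA libraries were above both DMSO libraries, and the order was the opposite in knockout-labelled islets. Its log2 fold change in the wild type was 0.70 (SE 0.20, adjusted p = 0.172). Mvd, mevalonate diphosphate decarboxylase, was at 4.16 and 5.71 CPM in wild-type DMSO and at 9.26 and 7.13 in wild-type DMXAA libraries. The groups did not overlap, and its log2 fold change was 0.73 (SE 0.27, adjusted p = 0.33). Mvd was at 8.20 and 7.08 CPM in knockout-labelled DMSO and at 5.66 and 7.78 in knockout-labelled DMXAA libraries, which overlapped.

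Idi1, isopentenyl diphosphate isomerase, was at 24.1 and 9.15 CPM in the solvent and 9.47 and 6.76 CPM in the DMXAA libraries of the wild type, against 11.5 and 15.4 CPM (solvent) and 12.8 and 9.54 CPM (DMXAA) in knockout-labelled islets. Replicate 1 of wild-type DMSO was far above all others, and replicate 2 lay between the DMXAA libraries. The wild-type log2 fold change was -1.03 (SE 0.42, adjusted p = 0.395), the largest in size among the 30. Hmgcs1, HMG-CoA synthase, was at 66.6 and 44.0 CPM in the solvent and 42.6 and 38.0 CPM in the DMXAA libraries of the wild type, against 49.3 and 51.7 CPM (solvent) and 43.1 and 40.5 CPM (DMXAA) in knockout-labelled islets. In both genotypes the DMXAA libraries were the lower ones without overlap, and the log2 fold changes were -0.46 (adjusted p = 0.378) in wild-type and -0.27 (adjusted p = 0.851) in knockout-labelled islets. Exon bases of Hmgcs1 (12.1%) and Idi1 (9.22%) are shared with antisense genes, and the strand setting of the counting is not given in the sources used here. The thiolase gene Acat2 had a wild-type log2 fold change of -0.41 (adjusted p = 0.46), Fdps of -0.22 and Mvk, mevalonate kinase, of -0.01.

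In the stretch from squalene to cholesterol, 9 of the 11 fold changes were negative in wild-type and 10 of 11 in knockout-labelled islets, with the same counts under relative log expression (RLE) scaling and under library totals. The wild-type count rested on DMSO replicate 1: without it 3 of 11 were negative and the median turned from -0.09 to 0.04. The summed level of the 11 genes was 709 CPM in that library and 539 CPM in replicate 2, which lay below both wild-type DMXAA libraries (554 and 561 CPM). In knockout-labelled islets 7 of 11 were negative without DMXAA replicate 1. Msmo1, methylsterol monooxygenase, was at 131 and 83.6 CPM in the solvent and 69.7 and 79.8 CPM in the DMXAA libraries of the wild type, against 107 and 118 CPM (solvent) and 90.8 and 87.8 CPM (DMXAA) in knockout-labelled islets. Neither genotype showed an overlap between treatments, and DMXAA libraries were the lower ones in both. The log2 fold changes were -0.52 (SE 0.19, adjusted p = 0.324) in wild-type and -0.33 (SE 0.19, adjusted p = 0.785) in knockout-labelled islets. Hsd17b7, the reductase that acts with Msmo1 and the dehydrogenase Nsdhl to remove methyl groups, was at 16.5 and 9.69 CPM in wild-type DMSO and at 8.13 and 8.85 in wild-type DMXAA libraries. In knockout-labelled libraries it was at 11.3 and 13.0 CPM under DMSO and at 10.0 and 9.83 under DMXAA. The treatments did not overlap in either genotype, although wild-type DMSO replicate 2 was close to the DMXAA libraries. Its wild-type log2 fold change was -0.62 (SE 0.25, adjusted p = 0.373).

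Cyp51, lanosterol demethylase, was at 69.8 and 48.9 CPM in wild-type DMSO and at 51.5 and 47.8 in wild-type DMXAA libraries, which overlapped. In knockout-labelled islets it was at 68.8 and 66.4 CPM under DMSO and at 50.8 and 55.1 under DMXAA, without overlap (log2 fold change -0.35, adjusted p = 0.716). Tm7sf2 (mm10 chromosome 19, 6062821 to 6068373, minus strand), a sterol reductase, was at 15.6 and 17.4 CPM in the solvent and 18.1 and 18.1 CPM in the DMXAA libraries of the wild type, against 15.2 and 15.6 CPM (solvent) and 11.8 and 9.48 CPM (DMXAA) in knockout-labelled islets. The knockout-labelled DMXAA libraries were the lowest of all 8. Its log2 fold change with DMXAA was 0.13 in wild-type and -0.53 in knockout-labelled islets (SE 0.19, adjusted p = 0.469), the smallest adjusted p of the 30 in the latter. Tm7sf2 shares 12.1% of its exon bases with Vps51 on the same strand, and its counts are uncertain to that extent. Ebp, a sterol isomerase, had positive fold changes in both genotypes, 0.23 and 0.04. Fdft1, squalene synthase, shares 18.3% of its exon bases with Ctsb on the opposite strand. For Sqle, Fdft1, Lss, Nsdhl, Sc5d and Dhcr7, wild-type log2 fold changes lay between -0.17 and -0.03.

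Of the genes of control and transport, Insig1 was at 138 and 89.4 CPM in wild-type DMSO and at 99.5 and 88.2 in wild-type DMXAA libraries, which overlapped. In knockout-labelled islets it was at 124 and 125 CPM under DMSO and at 96.8 and 96.4 under DMXAA, so the replicates lay close together and the treatments apart. The log2 fold changes of Insig1 were -0.28 (SE 0.18, adjusted p = 0.553) and -0.36 (SE 0.18, adjusted p = 0.739). Stard4, which carries cholesterol between membranes, was at 31.1 and 20.9 CPM in the solvent and 16.6 and 17.5 CPM in the DMXAA libraries of the wild type, against 21.01 and 27.5 CPM (solvent) and 22.03 and 23.5 CPM (DMXAA) in knockout-labelled islets. The treatments did not overlap in the wild type, with a log2 fold change of -0.61 (SE 0.21, adjusted p = 0.296), and they overlapped in knockout-labelled islets (-0.09). Srebf1 and Srebf2 themselves had log2 fold changes of 0.05 and 0.06 in the wild type and of 0.01 and 0.03 in knockout-labelled islets. The 95% intervals of Srebf2 were -0.25 to 0.37 and -0.27 to 0.34.

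Among the fatty acid genes, Scd1 was at 18.1 and 5.85 CPM in the solvent and 4.74 and 7.75 CPM in the DMXAA libraries of the wild type, against 10.3 and 11.2 CPM (solvent) and 9.59 and 7.96 CPM (DMXAA) in knockout-labelled islets. Wild-type DMSO replicate 1 was the highest of all, and replicate 2 lay within the DMXAA range. The wild-type log2 fold change was -0.93 (SE 0.47, adjusted p = 0.463). Elovl6, which lengthens palmitate, was at 33.6 and 32.6 CPM in the solvent and 25.3 and 25.1 CPM in the DMXAA libraries of the wild type, against 26.7 and 29.8 CPM (solvent) and 29.6 and 26.3 CPM (DMXAA) in knockout-labelled islets. Its wild-type replicates lay close together and the treatments apart (log2 fold change -0.39, SE 0.16, adjusted p = 0.368), while the knockout-labelled libraries overlapped.

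Acly was at 2213 and 2327 CPM in the solvent and 2809 and 2419 CPM in the DMXAA libraries of the wild type, against 2005 and 1987 CPM (solvent) and 2322 and 2503 CPM (DMXAA) in knockout-labelled islets. DMXAA libraries were the higher ones in both genotypes without overlap, with log2 fold changes of 0.20 (adjusted p = 0.632) and 0.27 (adjusted p = 0.808). Acly makes up most of the summed level of the 8 fatty acid genes. That sum was 2694 ± 58.6 CPM (SD, n = 2) with solvent and 3008 ± 253 with DMXAA in the wild type. In knockout-labelled islets it was 2430 ± 14.7 with solvent and 2857 ± 125 with DMXAA. Fasn, Acaca, which makes malonyl-CoA, Scd2, Fads1 and Fads2 had wild-type log2 fold changes between -0.21 and 0.09.

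**Figure D2:**
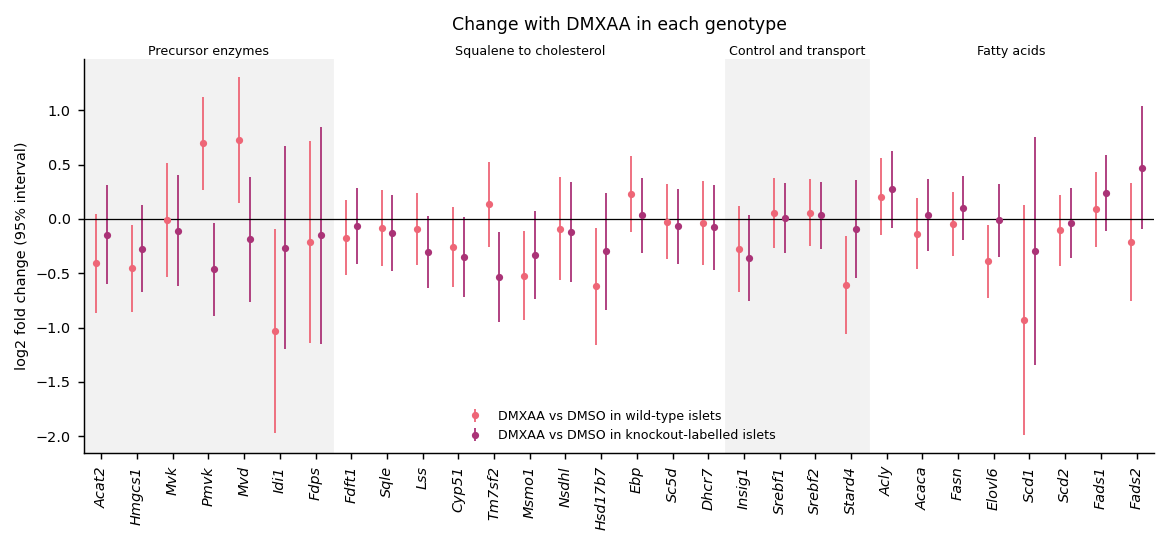
Log2 fold change of each gene with DMXAA in wild-type and in knockout-labelled islets, with 95% intervals from the fit (2 libraries in each group), grouped by role. Of the points, 22 of 30 lie below 0 in each genotype, and none passed the adjusted threshold.

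In knockout-labelled islets, 0 of the 30 genes passed the test for DMXAA against DMSO, where 0.375% of all genes did, and DESeq2 and limma-voom also called 0. An unadjusted p under 0.05 was reached by 2 of 30, Tm7sf2 and Pmvk, against 7.3% of all genes. The fold changes were negative for 22 of 30 with a median of -0.11, and under library totals for 21 of 30. Without DMXAA replicate 1 they were negative for 17 of 30 with a median of -0.07, and without DMSO replicate 2 for 19 of 30, also with a median of -0.07. The treatments were apart for 4 genes that were higher and 11 that were lower with DMXAA, against 18.1% and 17.7% of all genes. All 7 precursor enzymes had negative values, between -0.46 for Pmvk and -0.11 for Mvk. Of the cell type markers, 2 of 9 endothelial ones passed as higher and 3 of 7 lymphocyte ones as lower with DMXAA in these islets, and 3 of 9 endothelial ones as lower in the wild type; their part in the values of the 30 genes was not tested. The 95% intervals of the squalene to cholesterol genes lay between -0.94 and 0.38 on the log2 scale.

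The wild-type and knockout-labelled treatment contrasts share no library, so their signs can be set side by side. Fold changes were negative in both for 19 of the 30 genes (63.3%), positive in both for 5 (16.7%) and opposite for 6. Over all genes tested, 26.5% were negative in both and 26.3% positive in both. The members' count depended on which library was left out, and 10 of 30 were negative in both without wild-type DMSO replicate 1. It was 15 of 30 without knockout-labelled DMSO replicate 2 or DMXAA replicate 1, and 16 of 30 without knockout-labelled DMXAA replicate 2. The squalene to cholesterol genes were negative in both for 9 of 11, the precursor enzymes for 5 of 7 and the fatty acid genes for 3 of 8. Without wild-type DMSO replicate 1, the squalene to cholesterol genes were negative in both for 3 of 11. The mean summed level of the 11 squalene to cholesterol genes was 624 ± 120.4 CPM with solvent and 557 ± 4.85 CPM with DMXAA in the wild type (SD, n = 2). It was 648 ± 10.0 CPM in knockout-labelled DMSO and 569 ± 10.5 in knockout-labelled DMXAA libraries. The replicate spread of this sum was widest in wild-type DMSO.

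The mean of the treatment effects of both genotypes, a contrast added after the data were seen, called 0 of the 30 against 0.745% of all genes. An unadjusted p under 0.05 was reached by 6 of 30, against 9.92% of all genes, all with negative values: Hmgcs1, Cyp51, Msmo1, Hsd17b7, Insig1 and Stard4. The smallest adjusted p was that of Msmo1, with a log2 fold change of -0.43 (SE 0.13, adjusted p = 0.288).

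**Figure D3:**
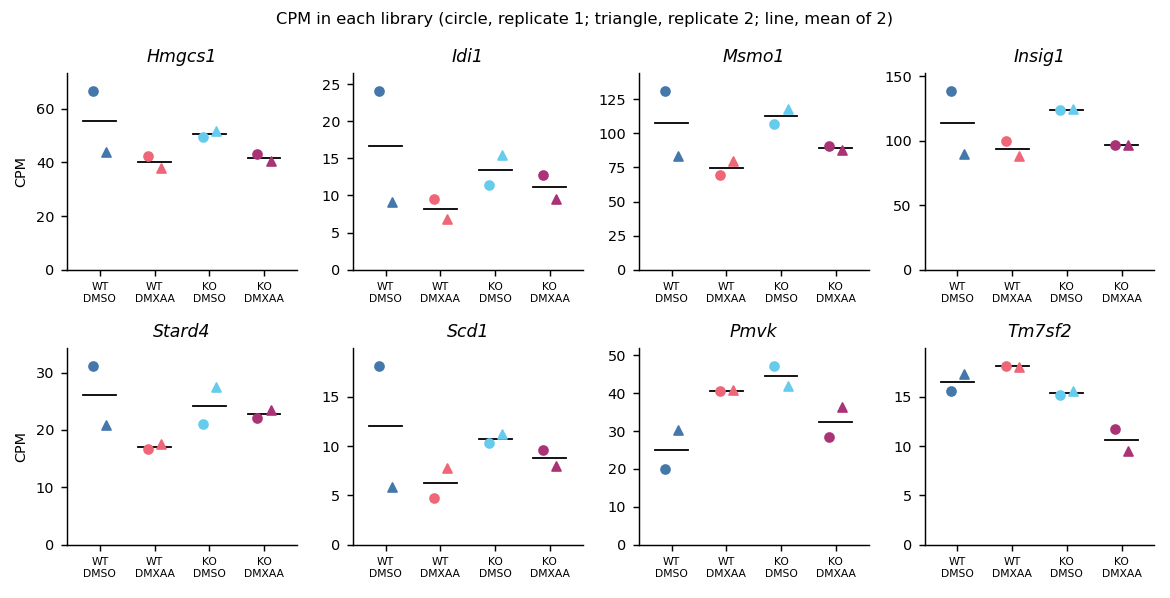
CPM of 8 of the genes in each library; circles are replicate 1, triangles replicate 2, lines the mean of the 2 libraries, and KO means knockout-labelled. Wild-type DMSO replicate 1 is the highest library for Hmgcs1, Idi1, Msmo1, Insig1, Stard4 and Scd1, and the lowest for Pmvk.

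The wild-type comparison rested on which DMSO library was used. Replicate 1 of wild-type DMSO held the highest value of the 8 libraries for 11 of the 30 genes, where this library was highest for 21.7% of all genes, and 5 of the 11 were squalene to cholesterol genes. It exceeded replicate 2 by 3.10 times for Scd1, 2.63 for Idi1, 1.70 for Hsd17b7, 1.57 for Msmo1, 1.55 for Insig1, 1.52 for Hmgcs1, 1.49 for Stard4 and 1.43 for Cyp51. Pmvk ran the other way, at 0.656 times replicate 2. Across the squalene to cholesterol genes replicate 1 was the higher in 9 of 11, with a median log2 ratio of 0.28, against 49.8% of all genes and a median of -0.0014. This is also the library with the highest acinar, stellate and fibroblast marker sums, and the part of those cells in the result was not tested.

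Without wild-type DMSO replicate 2, so that replicate 1 stood alone for its group and was taken to vary like the others, 8 of the 30 genes passed the wild-type test. Hmgcs1 (log2 fold change -0.72, adjusted p = 0.0248), Idi1 (-1.57, 0.00978), Msmo1 (-0.81, 0.015), Hsd17b7 (-0.95, 0.0326), Insig1 (-0.56, 0.0497), Stard4 (-0.87, 0.0312) and Scd1 (-1.53, 0.0127) fell in that fit. Pmvk rose in that fit by 1.03 (adjusted p = 0.0164). Of all genes, 2.98% passed as higher and 2.55% as lower there. Without replicate 1 in place of replicate 2, 0 of the 30 passed, 15 of 30 fold changes were negative, and the median was -0.0039. Insig1 was then at 0.08 and Scd1 at 0.11, a change of sign, while Hmgcs1 was at -0.11, Idi1 at -0.16 and Msmo1 at -0.15. Acat2 and Elovl6 moved little, from -0.38 and -0.41 without replicate 2 to -0.42 and -0.36 without replicate 1. The mean effect over genotypes called 5 of the 30 as lower without replicate 2 (Hmgcs1, Idi1, Msmo1, Insig1 and Scd1), against 0.912% of all genes, and 0 without replicate 1.

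**Figure D4:**
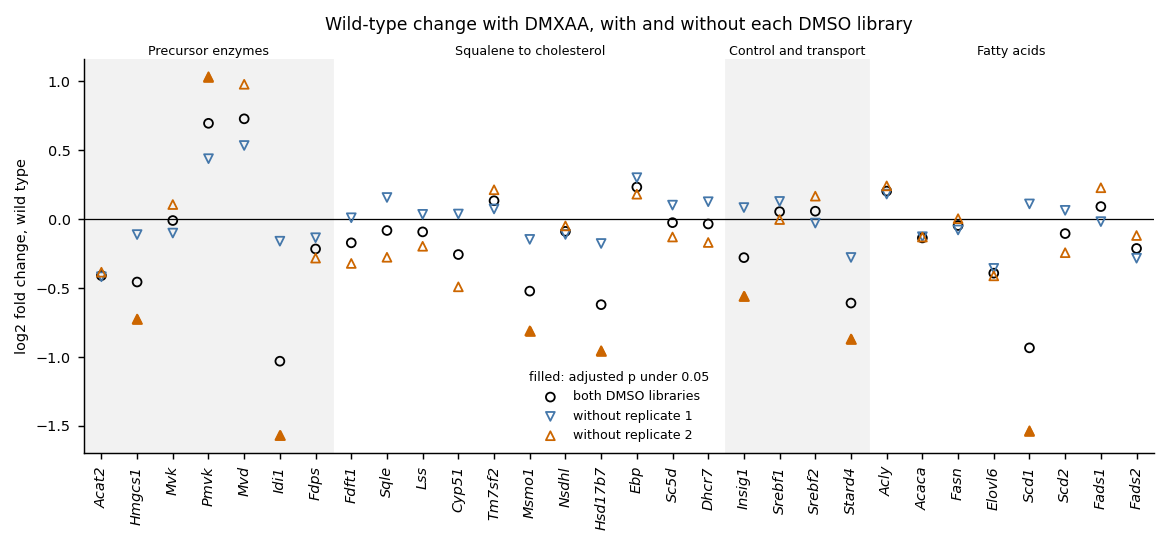
Wild-type log2 fold change of each gene with both DMSO libraries (circles), without replicate 1 (downward triangles) and without replicate 2 (upward triangles); filled symbols have an adjusted p under 0.05. The 8 filled points, from Idi1 at -1.57 to Pmvk at 1.03, all come from the fit without replicate 2.

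The difference between the treatment effects of the genotypes, the interaction, called 0 of the 30 genes, where 1.2% of all genes passed. An unadjusted p under 0.05 was reached by 3 of 30, Pmvk, Mvd and Tm7sf2, against 8.71% of all genes. Pmvk had the smallest adjusted p, with an interaction of -1.16 on the log2 scale (SE 0.28, adjusted p = 0.0807). DESeq2 called it with an adjusted p of 0.0132, limma-voom called 0 of the 30, and library totals gave it an adjusted p of 0.219. Whether Pmvk passed also depended on which library was left out. Over the 16 alternatives its interaction lay between -1.49 and -0.90. Mvd was at -0.92 (adjusted p = 0.496) and Tm7sf2 at -0.67 (adjusted p = 0.449). All 8 fatty acid genes had positive interactions, where 49.9% of all genes did, with a median of 0.16 and an adjusted p of 0.636 at the smallest. All 8 were also positive under RLE scaling and library totals, 6 without wild-type DMSO replicate 1, and 7 without wild-type DMXAA replicate 1 or 2. Fads2 was at 5.26 and 5.95 CPM in the solvent and 4.79 and 4.89 CPM in the DMXAA libraries of the wild type, against 4.27 and 4.30 CPM (solvent) and 5.28 and 6.67 CPM (DMXAA) in knockout-labelled islets. It was lower with DMXAA in the wild type (log2 fold change -0.21, SE 0.25, adjusted p = 0.759), without overlap. In knockout-labelled islets it was higher with DMXAA (0.47, SE 0.26, adjusted p = 0.778), also without overlap. Of all genes, 23.9% were apart as lower in the wild type and 18.1% as higher in knockout-labelled islets. Fads2 had 64 to 121 counts in the libraries.

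The contrasts between genotypes use the same libraries as the treatment contrasts. Under DMSO, 0 of the 30 genes passed, where 0.223% of all genes did, and 4 had an unadjusted p under 0.05, against 12.3% of all genes. These were Pmvk (log2 fold change 0.83, SE 0.20, adjusted p = 0.143), Mvd (0.62, adjusted p = 0.385), Ebp (0.39, adjusted p = 0.36) and Nsdhl (0.47, adjusted p = 0.407), each higher in knockout-labelled libraries. DESeq2 called Pmvk with an adjusted p of 0.0321, limma-voom called 0, and library totals gave it an adjusted p of 0.33. Whether Pmvk passed also depended on which library was left out. Over the 17 alternatives its log2 fold change lay between 0.54 and 1.16. Genotypes were apart for 8 genes that were higher and 4 that were lower in knockout-labelled libraries, against 24.3% and 22.4% of all genes. Lymphocyte markers summed to 88.4 and 69.9 CPM in knockout-labelled DMSO and to 34.7 and 8.66 CPM in wild-type DMSO libraries. Of the 7 tested, 2 were called higher and 0 lower in knockout-labelled libraries. The part of these cells in the values of the 30 genes was not tested. The 30 values were split into 14 positive and 16 negative, and into 7 and 23 under library totals, which moved the median of all genes by -0.14 in this contrast.

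Between genotypes under DMXAA, 0 of the 30 genes passed, where 2.39% of all genes did, and 1 had an unadjusted p under 0.05, against 13% of all genes. That gene was Tm7sf2, lower in knockout-labelled libraries by a log2 fold change of -0.76 (SE 0.19, adjusted p = 0.0525). It lay next to the threshold: RLE scaling gave an adjusted p of 0.0486 and DESeq2 one of 0.0195, while limma-voom called 0. Library totals gave an adjusted p of 0.136. Whether Tm7sf2 passed also depended on which library was left out. Over the 18 alternatives its log2 fold change stayed negative, between -0.93 and -0.63. Acinar markers were lowest in the knockout-labelled DMXAA libraries, at 327 and 381 CPM, and 0 of 10 tested acinar markers passed in this contrast. Endothelial markers differed, with 6 of 9 called higher in knockout-labelled libraries (sums of 1219 and 1339 CPM against 671 and 701 CPM), beside 1 of 8 stellate and fibroblast and 1 of 9 macrophage markers called higher. The part of these cells in the value of Tm7sf2 was not tested. Genotypes were apart for 14 genes that were higher and 4 that were lower in knockout-labelled libraries, against 23.3% and 21% of all genes. Positive values were found for 22 of 30 with a median of 0.11, where all genes had 54.3% positive and a median of 0.04. Under library totals 18 of the 30 were positive.

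Another 44 genes of sterol uptake, sensing, efflux and lipogenesis were listed beside the 30, of which 43 were tested, and Scd4 was not. None passed in any of the 5 contrasts, and an unadjusted p under 0.05 was reached by 7 of 43 in wild-type and 3 of 43 in knockout-labelled islets. Over all genes these shares were 11.9% and 7.3%. In the interaction 7 of 43 reached it, against 8.71% of all genes. Between genotypes it was reached by 9 of 43 under DMSO and 9 of 43 under DMXAA, against 12.3% and 13% of all genes. In the wild type, 20 of the 43 fold changes were positive and 23 negative, with a median of -0.01. Abca1, which exports cholesterol from cells, was at 240.2 and 169 CPM in the solvent libraries and at 140.3 and 146 CPM in the DMXAA libraries of the wild type. Here too replicate 1 was the higher of the solvent libraries, and the log2 fold change was -0.51 (SE 0.19, adjusted p = 0.334). In knockout-labelled islets Abca1 was at 160.4 and 145 CPM with solvent and at 226 and 163 CPM with DMXAA, so the DMXAA libraries were the higher ones there (log2 fold change 0.35, adjusted p = 0.767). The interaction of Abca1 was 0.87 (SE 0.27, adjusted p = 0.256).

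Slc25a1, the mitochondrial citrate carrier that supplies Acly, was at 62.5 and 81.6 CPM in the solvent and 126 and 111 CPM in the DMXAA libraries of the wild type, against 114 and 107 CPM (solvent) and 90.5 and 142 CPM (DMXAA) in knockout-labelled islets. Its wild-type DMXAA libraries were both above its DMSO libraries, and the log2 fold change of 0.71 (SE 0.20) had an adjusted p of 0.161, the smallest of the 43. The genes most like Pmvk over the 8 libraries, by Pearson's r of log2(CPM + 0.5) among 14423 genes, were Hist3h2a (r = 0.975), Nat8f1 (0.965), Uqcrb (0.962), Dpp7 (0.960) and Atp6v0b (0.959). These are the highest of 14423 correlations, each over only 8 libraries, and were picked for their size.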

How the data were processed

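RNA was measured in 8 libraries of mouse islets, grouped by the genotype and agent in their labels into 4 groups of 2. The authors deposited 1 raw count per gene and library. HISAT2, HTSeq and build mm10 are named per the submitters' processing notes, while its annotation release and strand setting were not given in the sources used here. GENCODE M21 gave symbols to 54495 of the 54532 identifiers. The 30 members, the role groups, the related genes and the marker lists were chosen with earlier results of these data known.

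Genes were filtered with filterByExpr and scaled by TMM, and CPM was computed from the deposited counts with the scaled sizes. edgeR 4.0.16 (R 4.3.3) fitted 1 coefficient per group to all 8 libraries (4 residual degrees of freedom, biological coefficient of variation 17.1%), tested with the robust quasi-likelihood F-test (legacy=FALSE). Benjamini-Hochberg adjustment ran over all 17055 genes, and SE is the size of the log2 fold change over the root of F. The fit was checked on simulated data with the same spread for all genes and no library that deviates from its group. That check therefore does not cover the pattern of wild-type DMSO replicate 1. Alternatives were RLE scaling, library totals, no filter, a stricter filter, DESeq2 1.42.0, limma-voom (limma 3.58.1), the older edgeR fit, only the groups compared, a replicate block and each library left out. All 30 genes were named, in full those with the largest wild-type change or the smallest p of each role group. Values in every library were also given, outside that rule, for Hmgcs1, Mvd, Msmo1, Cyp51, Insig1, Acly and Fads2. Related genes were named where the wild-type treatments did not overlap, and likeness was computed for the gene with the smallest p in the wild-type treatment contrast. Scripts for figures used matplotlib.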

Additional observations from a re-analysis of the deposited data

How the results depend on the processing

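For DMXAA against DMSO in wild-type islets, 0 of the 30 genes were called with all libraries, and between 0 and 8 when a library was left out. The range for the mean effect over genotypes was 0 to 5, and the knockout-labelled contrast gave 0 throughout. The interaction (Pmvk) called 1 gene with no filter and 1 with DESeq2, with 0 to 1 when a library was left out. Knockout-labelled against wild type under DMSO (Pmvk) also called 1 gene with no filter and 1 with DESeq2, with 0 to 1 when a library was left out. The same comparison under DMXAA (Tm7sf2) called 1 gene each with RLE scaling, no filter, the stricter filter of 1 CPM in 4 libraries and DESeq2, with 0 to 1 when a library was left out. The cause of these differences was not tested. Insig1 and Scd1, called as lower in the wild type without DMSO replicate 2, changed sign without DMSO replicate 1, to 0.08 and 0.11. A replicate block gave 0 of the 30 in every contrast. Same-numbered libraries did not deviate together, with correlations over genes from -0.12 to 0.11. With the numbers of the knockout-labelled DMXAA libraries crossed, 366 genes were called between genotypes under DMXAA, against 417 with the uncrossed block and 407 with none. Over all alternatives, 16 of the 30 genes kept the sign of their wild-type change, 16 that of their knockout-labelled change and 12 that of their interaction. Fdps values rest on few counts, 14 to 43 in a library. Over all genes, the knockout-labelled treatment contrast moved from 64 called genes to 154 with DESeq2, 177 with no filter, 29 with the older edgeR fit, 22 with library totals, 129 with only the groups compared and 0 with limma-voom or the stricter filter. The contrast between genotypes under DMSO moved from 38 to 159 with no filter, 155 with DESeq2, 25 with only the groups compared, 17 with the older edgeR fit, 14 with library totals, 13 with limma-voom and 7 with the stricter filter. With DESeq2 and library totals, the interaction moved from 204 to 313 and 129, and the contrast between genotypes under DMXAA from 407 to 619 and 259.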
